A study of Mus musculus with 4 samples.

Results

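Retinoic acid genes were followed by chromatin accessibility in lymph node fibroblasts from mice in which the Notch receptor gene Notch2 was targeted and from littermates. The set held 9 genes: the retinaldehyde dehydrogenases Aldh1a1, Aldh1a2 and Aldh1a3, the binding protein Crabp1, the retinoic acid hydroxylase Cyp26b1, and the nuclear receptors Rara, Rarb, Rarg and Rxra. They were chosen by name and not by a rule on their accessibility, but with earlier results of these data known. Every accessible region whose midpoint fell inside one of these genes, or for which one of them was the nearest protein-coding gene within 100000 bp, was taken. These were 118 of the 110110 regions in the data. A region can act on a gene other than the nearest.

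The assay was ATAC-seq, which tags open DNA with a transposase, and the cells were fibroblastic reticular cells (FRCs). These cells build the meshwork of the node. In the first group, Notch2_cKO, the mice carried Ccl19-Cre and floxed Notch2 alleles, so that recombination is aimed at cells in which Ccl19 sequence has driven Cre. The control group consisted of littermates with floxed Notch2 and no Cre. All mice were on a C57BL/6 background and labelled as females of 12 weeks. Each group had 2 libraries, and each library was 1 pool of brachial, axillary and inguinal nodes of 6 mice, from which 50000 cells were sorted that had high BP3 and podoplanin but neither CD31 nor CD45. Counts in the best window of each region summed to 30260067 and 12340742 in Notch2_cKO 1 and 2, against 23629588 and 25740366 in control 1 and 2.

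Retinoic acid is made from vitamin A in a pair of oxidation steps. Retinol is oxidised to retinaldehyde, and an ALDH1A enzyme oxidises retinaldehyde to retinoic acid, which is irreversible. Retinoic acid enters the nucleus, binds a receptor dimer of a RAR and an RXR on DNA, and is cleared by CYP26 enzymes. In gut-draining nodes, stromal cells are known to express ALDH1A enzymes and to help give lymphocytes gut-homing receptors; the nodes used here drain the skin.

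The labels were checked before the members were read. In 5 regions of the Y-linked genes Ddx3y, Eif2s3y, Uty and Kdm5d, the Notch2_cKO libraries held 0 and 0 counts, while control 1 held 2 and control 2 held 656. The label of control 2 says female, so its values go against that label. Called regions of the set, and those of other lists given by position, are also given without control 2 where the call was lost. Calls only counted by gene in the other lists, as at Stra6, Lrat, Wt1 and Msln, were not followed region by region without control 2. At the start of Notch2 (chromosome 3, 98013151 to 98013800) levels were 55.3 and 46.2 CPM in Notch2_cKO and 55.3 and 57.5 CPM in control. Its log2 change was -0.14 (SE 0.10) and did not pass (edgeR adjusted p = 0.340). Which part of the gene is floxed is not stated, so this region does not check the deletion. Regions of FRC markers were open, with up to 43.0 CPM at Pdpn, which encodes podoplanin, and 37.3 CPM at Bst1, which encodes BP3. Openness of this size does not mark FRCs, since markers of other cells reached 70.0 CPM at Myh11, 43.3 CPM at Des, 33.6 CPM at Epcam and 23.1 CPM at Cdh5.

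The promoter of Rarb is shown first because Rarb is itself a textbook target of retinoic acid. Below are the 250 bases before its listed start, from RefSeq for GRCm38.p6 (chr14:16575477-16575726, minus strand, 5′ to 3′). The capitals mark a direct repeat of 2 receptor half-sites spaced by 5 bases, an arrangement that RAR and RXR are known to bind. The repeat begins 53 bases before the start.

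Rarb: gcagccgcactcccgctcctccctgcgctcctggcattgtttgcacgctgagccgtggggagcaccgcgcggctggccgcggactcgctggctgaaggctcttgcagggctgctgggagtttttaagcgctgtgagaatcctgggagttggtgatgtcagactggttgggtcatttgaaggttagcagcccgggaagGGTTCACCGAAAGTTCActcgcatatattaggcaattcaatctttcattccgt

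Aldh1a1 has 2 listed starts. The promoter of 1 of them is shown because that start was the only listed gene start of the set that passed the test. No start or strand was listed for Aldh1a3. Whether its called region at an end of the gene, which was lower in Notch2_cKO, lies at its start was not determined. The bases are the 250 before the Aldh1a1 start that passed (chr19:20492333-20492582, plus strand, 5′ to 3′). The capitals mark a match to TGANTCA, the motif of AP-1 factors, 57 bases before that start.

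Aldh1a1: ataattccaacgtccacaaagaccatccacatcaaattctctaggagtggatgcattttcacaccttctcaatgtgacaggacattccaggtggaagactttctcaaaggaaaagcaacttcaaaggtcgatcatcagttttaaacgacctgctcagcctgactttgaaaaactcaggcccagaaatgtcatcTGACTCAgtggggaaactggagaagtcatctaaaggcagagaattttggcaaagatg

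Of the 9 genes, 8 had promoters in the RefSeq table, 14 in all, each of 250 bases before and 50 after a start. On either strand, the repeat spaced by 5 (GNTCA, any 6 bases, GNTCA) was found in 1 of the 14, that of Rarb, and in 0.861% of all 32851 promoters. TGANTCA was found in 1 of 14, the Aldh1a1 promoter printed above, and in 7.81% of all. AGGTCA, the receptor half-site, was found in 3 of 14 and in 16.3% of all. TGGGAA, the core bound by the Notch effector RBPJ, was found in 3 of 14 and in 25.6% of all. The repeat spaced by 2 (GNTCA, any 3 bases, GNTCA) was in 0 of 14 and in 1.12% of all, and GGGCGG, the GC box, was in 7 of 14 and in 35.7% of all. AGGTCA can overlap the repeats. A match is a description of letters and does not show binding.

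Regions near these genes moved in both directions in Notch2_cKO. Notch2_cKO was higher at 15 and lower at 15 of the 118 regions, and 88 did not pass (edgeR quasi-likelihood test, adjusted p under 0.05 over all regions). That is 25.4% of the set, beside 23.7% of all 110110 regions, so the share called was near the background. Over all regions 12.4% were higher and 11.3% lower, a split of 13698 to 12405 that became 12003 to 17616 when library medians were set equal instead. In the set, that centring gave 15 higher and 16 lower. The median log2 change was 0.06 in the set and 0.01 over all regions. In the set, 11 of the 118 regions passed with a change of at least 2-fold, beside 10903 of all 110110. Both Notch2_cKO libraries lay above both controls in 42 regions and below both in 31, beside 30.0% and 29.8% of all regions (59.8% together). A lower or higher level in sorted pools cannot be told apart from a change in the share of cells in which the region is open.

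By role, the dehydrogenases had 2 higher and 2 lower of 27 regions (14.8%). The binding and breakdown genes had 3 higher and 2 lower of 15 (33.3%), and the receptors 10 higher and 11 lower of 76 (27.6%). Over all regions 23.7% were called, and these roles hold few regions. Regions within 1000 bp of a start or end of any protein-coding gene made up 8 of the 118, of which 1 was higher and 1 lower, where 10.6% of all such regions were called. Elsewhere inside genes 16 of 61 passed (26.2%, beside 25.5% of all regions inside genes), and outside them 12 of 49 (24.5%, beside 26.1%). With each library left out in turn, 9 of the 30 called regions passed every time, 6 of them higher and 3 lower in Notch2_cKO. Without control 2, 10 regions of the set were higher and 6 lower (13.6%, beside 15.5% of all regions). DESeq2 with all libraries called 11 higher and 3 lower (11.9%, beside 11.5% of all regions). For called regions over the whole data, the share that passed with every library left out in turn was not computed, so that count has no background beside it.

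**Figure D1:**
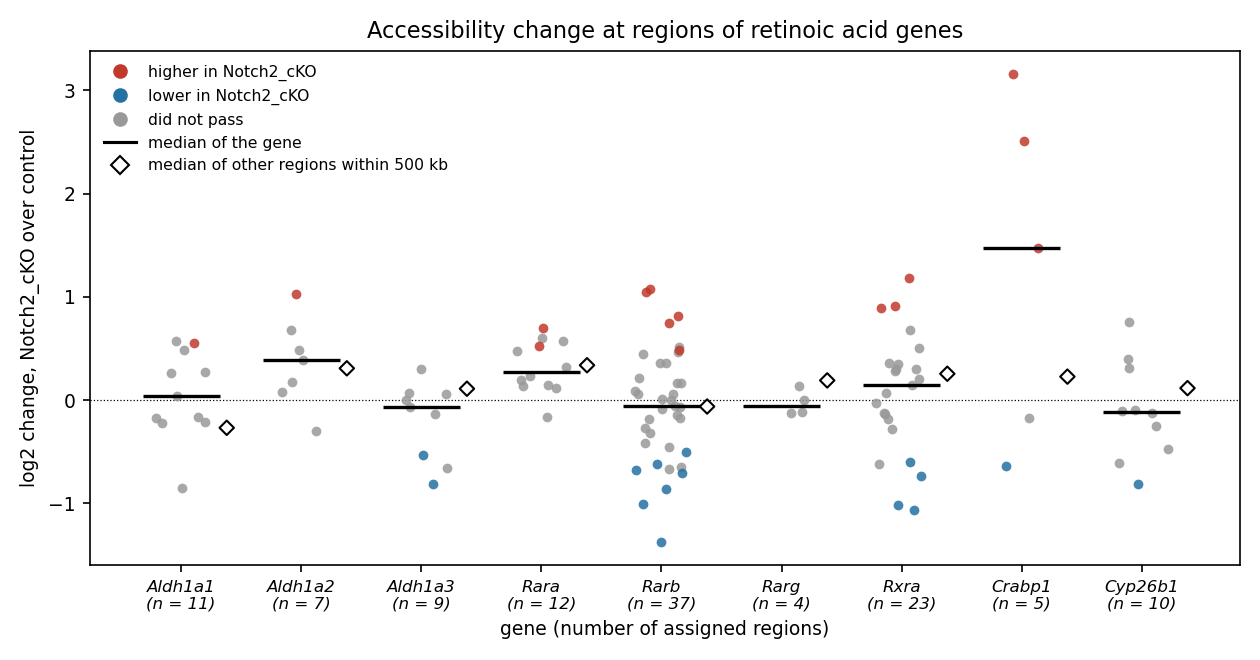
Log2 change of normalized level, Notch2_cKO over control, at each of the 118 regions, by gene. Each point is a region coloured by its call, bars are the gene's median, and diamonds are the median of other regions within 500 kb; the 3 points of Crabp1 above 1 stand apart from its median neighbour at 0.23.

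Aldh1a1 was more open at 1 of its 2 listed starts in Notch2_cKO. Aldh1a1 encodes a cytosolic retinaldehyde dehydrogenase. The start region (chromosome 19, 20492351 to 20492950), which holds most of the promoter printed above, had 15.1 and 16.7 CPM in Notch2_cKO, against 10.4 and 11.0 CPM in control. CPM here are loess-adjusted counts relative to library depth, always in 300 bp windows, so levels of different regions refer to equal lengths. Both Notch2_cKO libraries lay above both controls, by a log2 change of 0.56 (SE 0.14, edgeR adjusted p = 0.00679), which is 1.48-fold. The call rested on both controls: the adjusted p in edgeR was 0.104 without control 1 and 0.0548 without control 2. The 10 other regions of Aldh1a1 did not pass. Among the 10, a region inside the gene (20536451 to 20537050) had 3.02 and 4.76 CPM in Notch2_cKO and 2.75 and 2.23 CPM in control (log2 0.57, edgeR adjusted p = 0.0934). A region 47683 bp before the called start (20444601 to 20445200) had 0.615 and 0.597 CPM in Notch2_cKO and 1.03 and 1.17 CPM in control. This was the lowest log2 value of the gene, -0.85 (edgeR adjusted p = 0.0925).

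Aldh1a2 encodes the dehydrogenase that supplies most embryonic retinoic acid and is known from stromal and mesothelial cells. Its 1 called region lay beyond the gene's end. No region covered the listed start, and 1 of its 7 regions was inside the gene. The called region (chromosome 9, 71319701 to 71320350), 23757 bp outside the gene, had 9.01 and 8.20 CPM in Notch2_cKO, against 4.27 and 4.23 CPM in control. The 2 groups did not overlap, the log2 change was 1.03 (SE 0.17, edgeR adjusted p = 0.000162), and the call held with each library left out and in DESeq2. The most open region of the gene was its neighbour (71317001 to 71317650), with 16.4 and 17.2 CPM in Notch2_cKO and 14.6 and 15.2 CPM in control. There the log2 change was 0.17 (SE 0.13) and did not pass (edgeR adjusted p = 0.395). The midpoints of the 2 regions are 21057 and 23757 bp from the gene.

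At Aldh1a3, the third dehydrogenase gene, 2 of 9 regions were lower and none was higher. No start or strand was listed for this gene, so which end is its start was not determined. The more open of the 2 lower regions lay at an end of the gene (chromosome 7, 66427251 to 66427900). It had 14.3 and 11.4 CPM in Notch2_cKO, against 17.2 and 20.6 CPM in control. Both Notch2_cKO libraries were below both controls, with a log2 change of -0.53 (SE 0.15, edgeR adjusted p = 0.0130). Without control 2 that call was lost (edgeR adjusted p = 0.196), and DESeq2 gave an adjusted p of 0.0637. The second region, inside the gene (66405901 to 66406450), had 2.89 and 2.38 CPM in Notch2_cKO, against 4.94 and 4.57 CPM in control. The log2 change was -0.81 (SE 0.20, edgeR adjusted p = 0.00553). It passed with each library left out, and DESeq2 gave an adjusted p of 0.0928.

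**Figure D2:**
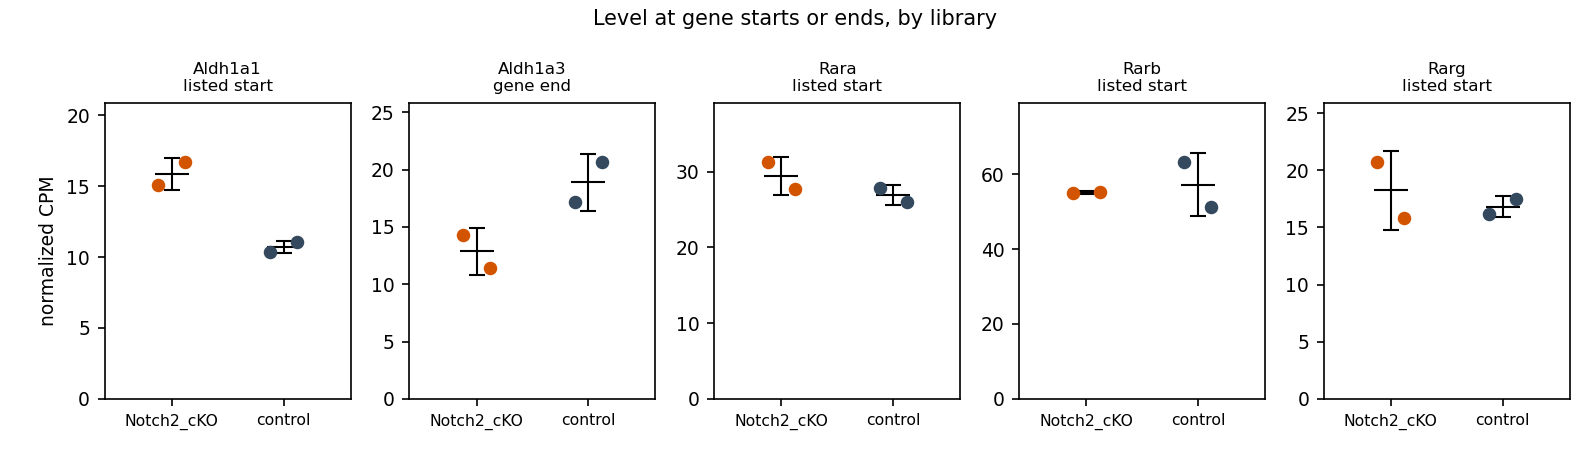
Normalized level in CPM at the most open start or end region of Aldh1a1, Aldh1a3, Rara, Rarb and Rarg; points are libraries, bars the mean and SD of 2 libraries, Notch2_cKO left of control. The points of Aldh1a1 and Aldh1a3 do not overlap between groups, and those of Rara, Rarb and Rarg do.

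Crabp1 had the largest changes of the set. Crabp1 encodes a cytosolic protein that binds retinoic acid and is known to limit how much of it reaches the receptors. Of its 5 regions 3 were higher and 1 lower, and the 3 higher ones all lay beyond the end of the gene. The first (chromosome 9, 54802901 to 54803550), 30190 bp outside, had 5.75 and 5.99 CPM in Notch2_cKO, against 0.843 and 0.477 CPM in control. In counts these are 177 and 78 in Notch2_cKO and 19 and 12 in control. The region was near closed in both controls and of middling openness in both Notch2_cKO libraries, a log2 change of 3.16 (SE 0.26, edgeR adjusted p = 1.05e-07) or 8.90-fold. Among all 110110 regions its log2 change ranked 54 from the top.

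The second Crabp1 region (54804401 to 54804900), 31490 bp outside, had 3.93 and 3.37 CPM in Notch2_cKO, against 0.612 and 0.682 CPM in control (log2 2.51, SE 0.27, edgeR adjusted p = 1.75e-06). The next (54787651 to 54788200), 14790 bp outside, had 5.62 and 4.23 CPM in Notch2_cKO, against 1.64 and 1.99 CPM in control (log2 1.47, SE 0.22, edgeR adjusted p = 6.51e-05). All 3 kept their call with each library left out and in DESeq2, and in none did the groups overlap. The gene next nearest to the first 2 is Ireb2, which lies 59358 and 58058 bp away, and to the last Wdr61, at 53351 bp. Of 42 other regions within 500000 bp of Crabp1, 7 were higher and 2 lower, with a median log2 change of 0.23. Inside Crabp1, a region (54770351 to 54770900) had 2.02 and 1.84 CPM in Notch2_cKO, against 2.86 and 3.24 CPM in control. Its log2 change was -0.64 (edgeR adjusted p = 0.0463), and the adjusted p in edgeR was 0.0824, 0.273, 0.125 and 0.0805 without control 1, control 2, Notch2_cKO 1 and Notch2_cKO 2. With all libraries, that call was also lost with TMM factors (0.0541), with summed windows (0.0784) and in DESeq2 (0.353). No region covered the listed start of the gene.

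**Figure D3:**
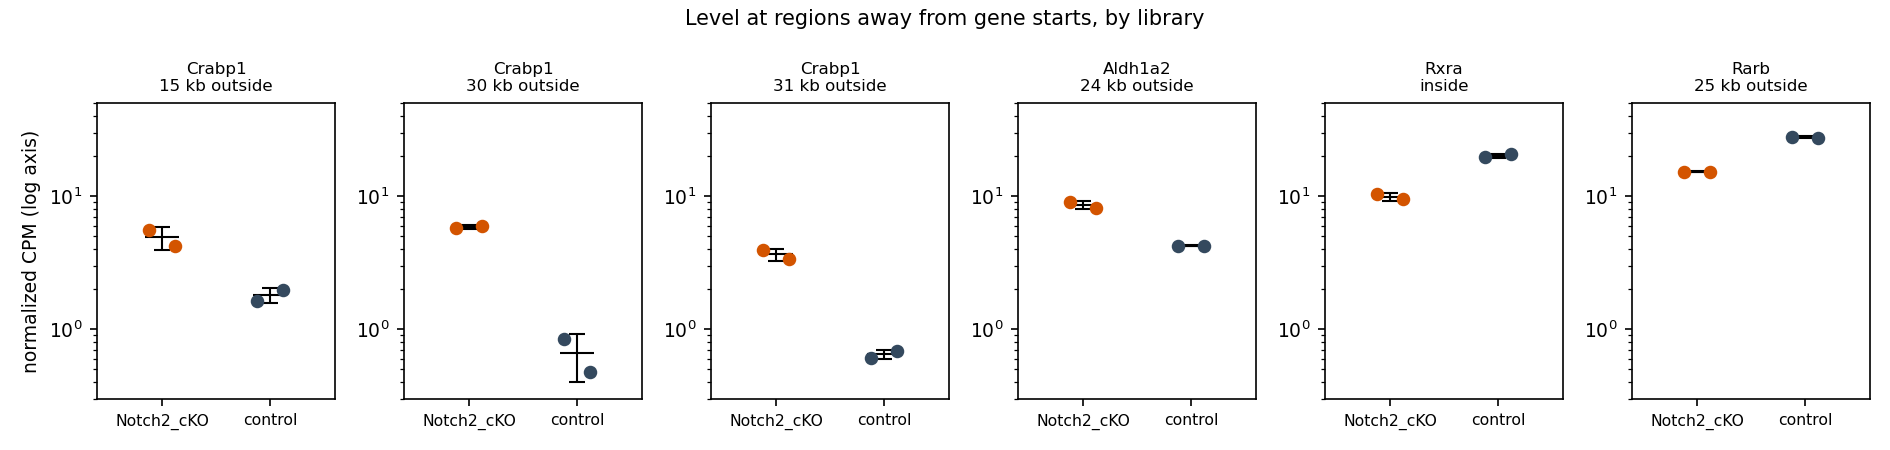
Normalized level in CPM on a log axis at 6 called regions away from gene starts; points are libraries, bars the mean and SD of 2 libraries, Notch2_cKO left of control. These are the regions of the set with the smallest p away from gene starts and ends, a choice that favours groups that do not overlap. The Crabp1 and Aldh1a2 regions are higher in Notch2_cKO and those of Rxra and Rarb lower. Groups do not overlap in any panel, as in 59.8% of all regions.

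Cyp26b1 encodes a cytochrome P450 that hydroxylates retinoic acid and so ends its action. No region covered the listed start of the gene. The 4 regions inside the gene were open in both groups, and none passed. The most open (chromosome 6, 84590101 to 84590700) had 14.4 and 16.2 CPM in Notch2_cKO and 16.5 and 16 CPM in control, a log2 change of -0.10 (SE 0.14, 95% interval -0.38 to 0.19; edgeR adjusted p = 0.664). That value was 0.016 without Notch2_cKO 1. The log2 values of the 4 ran from -0.25 to -0.10. The single called region (84472801 to 84473350) lay 98464 bp outside and had 1.35 and 1.07 CPM in Notch2_cKO, against 1.94 and 2.46 CPM in control. Its log2 change was -0.81 (SE 0.27, edgeR adjusted p = 0.0333). The adjusted p in edgeR was 0.306, 0.0526 and 0.0619 without control 2, Notch2_cKO 1 and Notch2_cKO 2, and DESeq2 with all libraries gave 0.287. Without control 1, 1 region of Cyp26b1 was higher.

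Rara encodes the most widely expressed RAR. Of its 12 regions 2 were higher and none lower, and 10 did not pass. In 9 of the 12 both Notch2_cKO libraries lay above both controls, and in none below, beside 30.0% and 29.8% of all regions. The median log2 change was 0.28, and that of 82 other regions within 500000 bp was 0.34, so its surroundings had the same sign. The clearest region, inside the gene (chromosome 11, 98933101 to 98933750), had 11.2 and 10.3 CPM in Notch2_cKO, against 6.66 and 6.63 CPM in control. The log2 change was 0.70 (SE 0.16, edgeR adjusted p = 0.00232), and the call held with each library left out and in DESeq2. The second (98966501 to 98967150) had 14.5 and 11.1 CPM in Notch2_cKO, against 8.82 and 9.27 CPM in control (log2 0.53, SE 0.16, edgeR adjusted p = 0.0191). The adjusted p in edgeR was 0.148, 0.0940 and 0.274 without control 1, control 2 and Notch2_cKO 1, the last with a log2 change of 0.31. DESeq2 with all libraries gave 0.0729.

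The most open region of Rara was at a listed start (98937351 to 98937850), where it also overlaps the predicted gene Gm46294. It had 31.2 and 27.7 CPM in Notch2_cKO and 27.8 and 26.0 CPM in control. The groups overlapped, and the log2 change of 0.14 (SE 0.12, 95% interval -0.10 to 0.38) did not pass (edgeR adjusted p = 0.432). At the end of the gene (98975201 to 98975800) levels were 2.22 and 3.22 CPM in Notch2_cKO and 1.75 and 1.96 CPM in control (log2 0.48, edgeR adjusted p = 0.184).

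Rarb had 37 regions, more than any other gene of the set, over a span of 651493 bp. Rarb encodes the receptor whose own transcription retinoic acid is known to induce. At its start the groups overlapped, and of the other regions 5 were higher and 7 lower in Notch2_cKO. At the start (chromosome 14, 16575201 to 16575850), which holds the repeat printed above, levels were 54.9 and 55.3 CPM in Notch2_cKO and 63.1 and 51.3 CPM in control. This was the most open region of the 118, above 97.4% of all regions. Its log2 change was -0.05 (SE 0.10, 95% interval -0.27 to 0.16; edgeR adjusted p = 0.757), and it was 0.088 without control 1. At the upstream end of the gene (17081951 to 17082700) levels were 4.99 and 5.16 CPM in Notch2_cKO and 4.28 and 4.71 CPM in control (log2 0.17, edgeR adjusted p = 0.556).

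The Rarb region of smallest p lay 24519 bp outside the gene, on the upstream side (17106551 to 17107200). It had 15.4 and 15.2 CPM in Notch2_cKO, against 28.2 and 27.4 CPM in control. The libraries of each group lay close together, and the log2 change was -0.86 (SE 0.12, edgeR adjusted p = 4.00e-05), a level 0.549 times that of control. A region inside the gene (16526051 to 16526600), 49176 bp downstream of the start, went the other way. It had 3.27 and 3.30 CPM in Notch2_cKO, against 1.45 and 1.64 CPM in control (log2 1.08, SE 0.23, edgeR adjusted p = 0.00178). These 2 regions passed with each library left out and in DESeq2, while each of the other 10 lost its call without at least 1 library.

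Among those 10, a region 4126 bp downstream of the start (16571101 to 16571550) had 0.503 and 0.754 CPM in Notch2_cKO, against 1.52 and 1.53 CPM in control. This is a log2 change of -1.37 (SE 0.34, edgeR adjusted p = 0.00565), with an adjusted p of 0.112 in edgeR without Notch2_cKO 1. Further downstream, 16544951 to 16545450 had 1.44 and 1.46 CPM in Notch2_cKO, against 3.24 and 2.60 CPM in control (log2 -1.01, edgeR adjusted p = 0.00499, or 0.0609 without control 1). A region far upstream of the start but inside the span (16772801 to 16773400) had 4.51 and 5.34 CPM in Notch2_cKO, against 7.69 and 8.10 CPM in control. There the log2 change was -0.71 (edgeR adjusted p = 0.00480, or 0.0746 without Notch2_cKO 1). In each of these 3 the groups did not overlap, and in DESeq2 with all libraries none passed (adjusted p = 0.141, 0.106 and 0.0677).

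On the higher side of Rarb, 16957701 to 16958350 had 7.10 and 8.27 CPM in Notch2_cKO, against 4.89 and 4.15 CPM in control (log2 0.75, edgeR adjusted p = 0.00406, or 0.0743 without control 2). A region at 16684951 to 16685500 had 3.31 and 2.61 CPM in Notch2_cKO, against 1.71 and 1.24 CPM in control. Its log2 change was 1.05 (edgeR adjusted p = 0.00415), with an adjusted p of 0.0691 without control 2 and 0.0912 without Notch2_cKO 1 in edgeR and 0.0696 in DESeq2. The 5 remaining called regions of the gene had log2 changes from -0.67 to 0.82 and adjusted p from 0.0137 to 0.0336 in edgeR. None of these 5 passed without control 2, with adjusted p from 0.0726 to 0.166 in edgeR, and 4 of them did not pass in DESeq2 (0.125 to 0.317). The lowest, 17139901 to 17140500, had a log2 change of -0.26 without Notch2_cKO 1 (edgeR adjusted p = 0.566) and -0.96 without Notch2_cKO 2. DESeq2 called 3 Rarb regions higher and 1 lower. Without control 2, 1 region of Rarb was higher and 4 were lower. Lower regions numbered 3 without control 1 and also 3 without Notch2_cKO 1. Higher and lower regions were interspersed along the gene, and the median log2 change of its 37 regions was -0.05.

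Rxra encodes the most widely used partner of the RARs, which also pairs with other nuclear receptors. Its 23 regions were mixed as well, with 3 higher, 4 lower and 16 that did not pass. The clearest was inside the gene (chromosome 2, 27740101 to 27740750), with 10.4 and 9.49 CPM in Notch2_cKO, against 19.7 and 20.7 CPM in control. Both groups were tight and far apart, with a log2 change of -1.01 (SE 0.14, edgeR adjusted p = 2.64e-05), and the call held with each library left out and in DESeq2. No region covered a listed start.

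Each of the other 6 called regions of Rxra lost its call without 1 or 2 of the libraries, and 3 of them did not pass in DESeq2. The gene had 1 higher region without Notch2_cKO 1, 5 higher without Notch2_cKO 2 and 1 lower without control 2. Upstream of the gene, 27671751 to 27672300 had 2.39 and 1.83 CPM in Notch2_cKO, against 0.988 and 0.931 CPM in control (log2 1.18, edgeR adjusted p = 0.00396, or 0.136 without Notch2_cKO 1 and 0.0918 in DESeq2). Its neighbour, 27667551 to 27668100, had 5.61 and 4.69 CPM in Notch2_cKO, against 2.27 and 3.33 CPM in control (log2 0.89, edgeR adjusted p = 0.00390, or 0.0805 without control 1). They lie at -5151 and -9401 bp from the listed start. Downstream, 55581 bp outside, 27818601 to 27819300 had 13.4 and 8.09 CPM in Notch2_cKO, against 5.68 and 6.19 CPM in control (log2 0.91, edgeR adjusted p = 0.00180). The log2 change there was 0.45 without Notch2_cKO 1 (edgeR adjusted p = 0.133).

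On the lower side of Rxra, 27771851 to 27772500 had 6.03 and 4.42 CPM in Notch2_cKO, against 7.91 and 9.98 CPM in control (log2 -0.73, edgeR adjusted p = 0.00612, or 0.0924 without control 2). A region inside the gene, 27699451 to 27700100, had 9.87 and 5.22 CPM in Notch2_cKO, against 11.1 and 13.0 CPM in control. Both Notch2_cKO libraries were below both controls but lay far from each other (log2 -0.60, edgeR adjusted p = 0.0355). The log2 change was -0.28 without Notch2_cKO 2 (edgeR adjusted p = 0.195) and -1.19 without Notch2_cKO 1. The adjusted p was 0.120 without control 2 and 0.0544 with summed windows in edgeR, and 0.463 in DESeq2. The farthest upstream, 27637301 to 27637750, had 0.757 and 1.91 CPM in Notch2_cKO, against 2.08 and 2.74 CPM in control, so the groups nearly met. The log2 change there was -1.07 (edgeR adjusted p = 0.0220), and it was -0.34 without Notch2_cKO 1 (edgeR adjusted p = 0.557) and -0.80 without control 2 (edgeR adjusted p = 0.128). It was -1.69 without Notch2_cKO 2, and the adjusted p was 0.0622 with summed windows in edgeR and 0.264 in DESeq2.

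**Figure D4:**
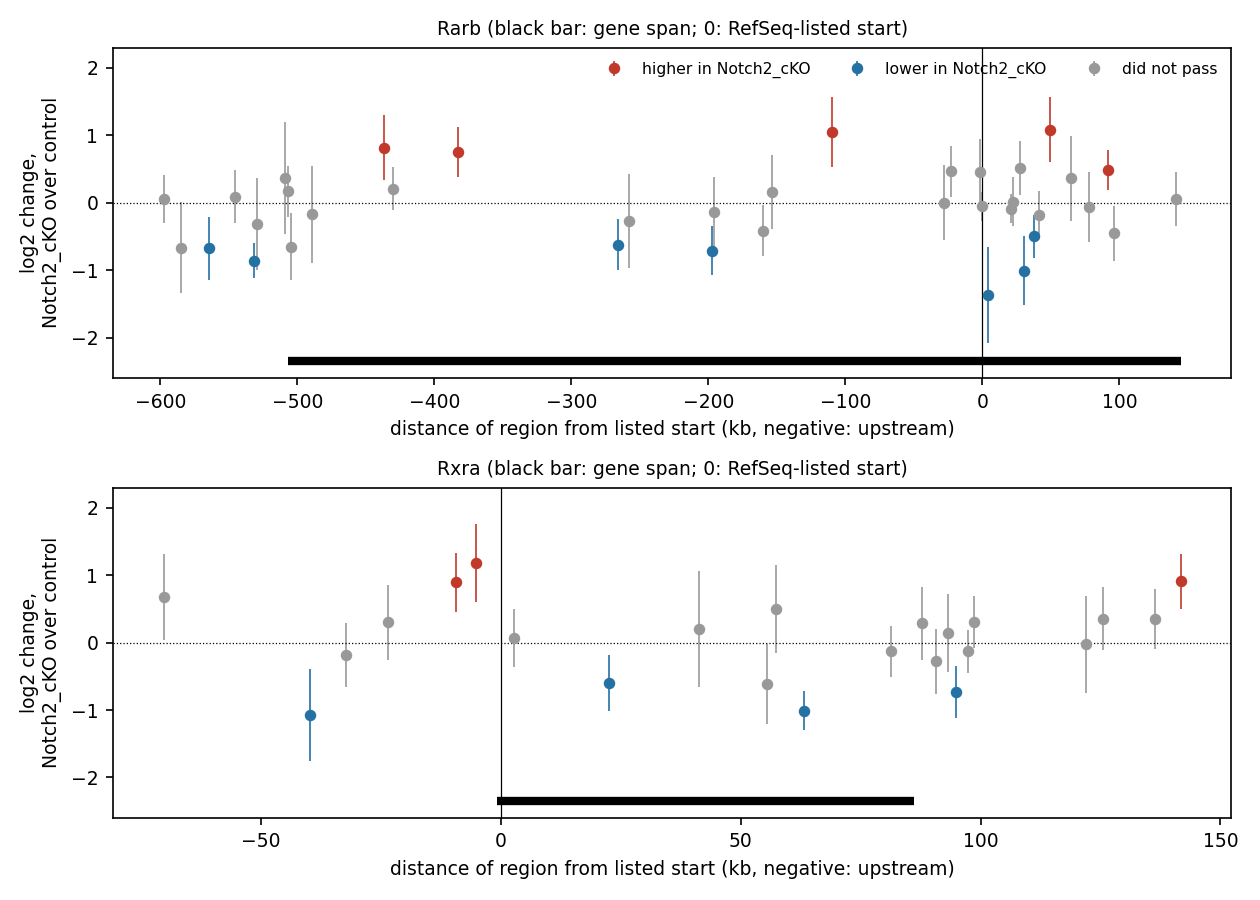
Log2 change, Notch2_cKO over control, of each region of Rarb (37) and Rxra (23) against its distance in kb from the listed start, with 95% intervals; the black bar is the gene's span and negative distances are upstream. Higher and lower regions lie among regions that did not pass in both genes, and the start of Rarb sits at -0.05.

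Rarg encodes the receptor best known from skin and skeleton. None of its 4 regions passed in edgeR, DESeq2 or limma-voom, and 0 had an unadjusted p under 0.05 in edgeR. Of its 2 listed starts, that at 102246500 was covered by no region. The region at the other start (chromosome 15, 102257401 to 102257850) had 20.7 and 15.8 CPM in Notch2_cKO and 16.2 and 17.5 CPM in control. The Notch2_cKO libraries lay on either side of the controls, and the log2 change was 0.14 (SE 0.14, 95% interval -0.16 to 0.44; edgeR adjusted p = 0.538). It was -0.082 without Notch2_cKO 1, a fit in which 1 of the 4 regions was lower. The other 3 regions had log2 values from -0.13 to 0.01.

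The surroundings of the other genes differed in sign. The median log2 change of regions within 500000 bp but not assigned to the gene was -0.27 at Aldh1a1, 0.31 at Aldh1a2, 0.11 at Aldh1a3, 0.12 at Cyp26b1, -0.06 at Rarb, 0.19 at Rarg and 0.26 at Rxra. The genes' own medians were 0.04 at Aldh1a1, 0.39 at Aldh1a2, -0.07 at Aldh1a3, -0.11 at Cyp26b1, -0.06 at Rarg and 0.14 at Rxra. At Aldh1a1, Aldh1a3 and Cyp26b1, and at Rarg, the sign of the gene differed from that of its surroundings. These gene medians lay near 0. The median over all regions was 0.0057 in the main fit and -0.0863 with median centring, so signs this near 0 can depend on the normalization.

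In order of mean level, the regions at listed starts ranked Rarb, Rara, Rarg and Aldh1a1. Libraries of adjacent genes in this order did not overlap except for Rarg and Aldh1a1, at 15.8 to 20.7 and 10.4 to 16.7 CPM over all 4 libraries. Aldh1a3, with no listed start, was not ranked, and its region at an end of the gene had a mean level of 15.9 CPM. ATAC-seq gives the openness of DNA and not the amount of transcript.

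The rest of the pathway was described by lists of 37 other genes, which had 331 regions. Of these 46 were higher and 26 lower in Notch2_cKO (21.8%, beside 23.7% of all regions). Genes of retinol uptake and oxidation had 11 higher and 4 lower of 57 regions (26.3%), with a median log2 change of 0.15. Dhrs9, which encodes a retinol dehydrogenase, had 2 higher of 3 regions. The clearest, inside the gene (chromosome 2, 69401101 to 69401750), had 7.62 and 5.23 CPM in Notch2_cKO, against 2.14 and 1.67 CPM in control (log2 1.81, SE 0.22, edgeR adjusted p = 8.01e-06). Dhrs3, which encodes an enzyme that reduces retinaldehyde back to retinol, had 1 higher and 1 lower of 6 regions. Its higher region (chromosome 4, 144906351 to 144906750) had 26.2 and 22.5 CPM in Notch2_cKO, against 9.56 and 10.4 CPM in control (log2 1.29, SE 0.14, edgeR adjusted p = 1.81e-06). At Stra6, which encodes a receptor for the retinol carrier, 4 of 8 regions were higher and none lower. At Lrat, which encodes an enzyme that stores retinol as esters, 2 of 2 were lower.

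Other binding and breakdown genes had 2 higher and 0 lower of 21 regions (9.52%, beside 23.7% of all regions). Neither call held without control 1, without Notch2_cKO 1 or in DESeq2. A region inside Cyp26c1, a paralog of Cyp26b1, had 4.54 and 3.92 CPM in Notch2_cKO, against 2.4 and 2.86 CPM in control (chromosome 19, 37692601 to 37693150; log2 0.71, edgeR adjusted p = 0.0163). The adjusted p in edgeR was 0.152 without control 1 and 0.155 without Notch2_cKO 1, and 0.134 in DESeq2. A region 68990 bp from Fabp5, which encodes a fatty acid binding protein that can carry retinoic acid, had 3.18 and 2.22 CPM in Notch2_cKO, against 1.36 and 2.04 CPM in control (chromosome 3, 10085401 to 10085900; log2 0.72, edgeR adjusted p = 0.0492). Its log2 change was 0.46 without control 1 (edgeR adjusted p = 0.359) and 0.36 without Notch2_cKO 1 (edgeR adjusted p = 0.542), and DESeq2 gave an adjusted p of 0.301. The call was lost in 8 of 14 alternatives.

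Other receptors and cofactors had 16 higher and 15 lower of 110 regions (28.2%, beside 23.7% of all regions). The cofactor gene Nrip1 had 2 higher and 7 lower of 22. A region 97473 bp from Nrip1 had 11.6 and 12.9 CPM in Notch2_cKO, against 5.15 and 3.98 CPM in control (chromosome 16, 76470951 to 76471650; log2 1.42, SE 0.17, edgeR adjusted p = 6.53e-06). The groups did not overlap there.

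Genes known to respond to retinoic acid had 17 higher and 7 lower of 143 regions (16.8%), with a median log2 change of 0.05. At Tgm2, which encodes a transglutaminase, 4 of 15 were higher and 1 lower. Its clearest region (chromosome 2, 158130401 to 158131150) had 12.6 and 14.6 CPM in Notch2_cKO, against 5.68 and 6.47 CPM in control (log2 1.14, SE 0.16, edgeR adjusted p = 2.97e-05). At Meis2, a homeobox gene, 3 of 30 were higher and 2 lower, with 6.90 and 8.25 CPM in Notch2_cKO, against 2.89 and 3.05 CPM in control, at the clearest (chromosome 2, 116047301 to 116047850; log2 1.32, SE 0.19, edgeR adjusted p = 3.33e-05). At Cxcl13, which encodes a B cell chemokine that retinoic acid induces in developing nodes, none of 21 regions passed in edgeR, DESeq2 or limma-voom, and 4 had an unadjusted p under 0.05 in edgeR.

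Markers of other cells were read beside these results. Mesothelium is a cell type known to express Aldh1a1 and Aldh1a2. Regions of 4 mesothelial marker genes had 4 higher and 0 lower of 10 (40%, beside 23.7% of all regions), 3 of them at Wt1 and 1 at Msln. They summed to 32.1 and 34.8 CPM in Notch2_cKO, against 24.9 and 23.2 CPM in control. Wt1 alone had 27.3 and 28.8 CPM in Notch2_cKO, against 19.7 and 18.7 CPM in control. At Upk3b (2.07 and 2.07 against 1.96 and 2.25 CPM) and Upk1b (1.19 and 1.84 against 2.38 and 1.53 CPM) the groups overlapped. Those of 4 blood endothelial genes had 6 higher and 3 lower of 37 (24.3%). They summed to 208 and 185 CPM in Notch2_cKO, against 171 and 174 CPM in control. In lymphatic endothelial genes 0 of 15 regions passed in edgeR (4 at an unadjusted p under 0.05) or DESeq2 and 1 in limma-voom, and sums were 72.8 and 69.5 CPM in Notch2_cKO and 73.7 and 69.8 CPM in control. In leukocyte genes 0 of 8 passed in edgeR (1 at an unadjusted p under 0.05) or DESeq2 and 1 in limma-voom, and sums were 48.8 and 53.3 CPM in Notch2_cKO and 62.2 and 55.8 CPM in control. Mural cell genes had 3 higher and 4 lower of 37 (18.9%), with 319 and 329 CPM in Notch2_cKO and 335 and 331 CPM in control. Epithelial genes had 0 higher and 3 lower of 19 (15.8%), with 103 and 114 CPM in Notch2_cKO and 113 and 108 CPM in control. Itgax was not analysed here. FRC marker genes had 9 higher and 7 lower of 88 regions (18.2%), which belong to 8 of 10 listed genes, and Ccl19 and Ccl21a were not analysed here. Their part in the changes at the retinoic acid genes was not tested.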

How the data were processed

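ATAC-seq libraries of 2 Notch2_cKO and 2 control pools were analysed. Per the submitters' processing notes, the tools were Bowtie2 2.4.5, cutadapt, deepTools, Picard 2.27.5, SAMtools 1.14 and Trim Galore 0.6.7, and the build was mm10. No source used here names the peak caller, the window filter or a transposase shift. The authors' deposited values are counts for 678058 windows of 300 bp at steps of 50 bp. The labels call them loess-normalized in csaw, but library totals differ as raw counts do, and they were treated as counts.

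Windows with up to 100 bp between them were merged into 110110 regions (median width 600 bp), each represented by the window of highest summed counts. Trended loess offsets (limma 3.58.1, span 0.3) entered edgeR 4.0.16 in R 4.3.3. Genotype was the only term, with Benjamini-Hochberg adjustment over all regions. Standard errors are approximate, from the log2 change and the F statistic. Genes (21896 protein-coding, RefSeq GRCm38.p6) were assigned by overlap of the window's midpoint, else by nearness within 100000 bp, which gave 95424 regions a gene. Exons and introns were not annotated here. The named regions were those within 1000 bp of a gene start or end, the most open region of each gene, and up to 3 called regions of smallest p per gene and direction, or 2 for each other list. Some further regions were named after their values were seen, and an item that the rule names is not reported here. The genes and lists were chosen with earlier results of these data known.

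The chi-square per region between libraries was 2.77 for Notch2_cKO and 1.96 for control, so no pair was counted as 1 library. Replicates are separate pools per the labels. With 2 libraries a group, an exact permutation test cannot go below p = 0.333, so edgeR's tests rest on the spread shared over all regions. Alternatives were TMM, median centring, DESeq2 1.42.0, limma-voom, a filter on the lowest 25% of levels, other windows, merging to 500 bp, adjusted p under 0.01, genes within 10000 bp, a replicate block and each library left out.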

Additional observations from a re-analysis of the deposited data

How the results depend on the processing

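The 15 higher member regions numbered 10 to 18 over the fits with 1 library left out, and the 15 lower ones 6 to 12, the lowest being without control 2. DESeq2 gave 3 lower and an adjusted p under 0.01 gave 7. Of 628 values of 45 named regions under 14 alternatives, 543 kept direction and side of the threshold, 82 no longer passed and 3 turned sign, none of which passed: the Cyp26b1 region at 84590101 (-0.16 to 0.016 with 1 library left out) and the Rarg start (-0.082 to 0.31) without Notch2_cKO 1, and the Rarb start (-0.20 to 0.088) without control 1. In the other pathway genes, 46 higher regions became 23 in DESeq2 and 29 under 0.01, and 26 lower ones became 40 with median centring, 10 in DESeq2 and 15 under 0.01. With 1 library left out there were 32 to 52 higher and 19 to 32 lower. At markers of other cells, 13 higher regions became 5 in DESeq2, 8 with summed windows and 5 under 0.01 (8 to 19 with 1 library left out). There, 10 lower regions became 3 in DESeq2, 5 without the lowest 25% of levels, 4 under 0.01 and 5 within 10000 bp (3 to 12 with 1 library left out). Over all regions DESeq2 called 7295 higher and 5350 lower, against 13698 and 12405. The cause was not tested. A group reduced to 1 library borrows its spread from the other group. Same-numbered libraries had a correlation of deviations of -0.179. With 2 libraries a group both pairs give this 1 value by construction, so it cannot tell whether the numbers pair them. With a replicate block 15 member regions were higher and 14 lower, and of the named regions only that inside Crabp1 (54770351) lost its call (edgeR adjusted p = 0.0768). With crossed pairing, chosen after seeing the data, 21 were higher and 17 lower, and 18065 and 16893 over all regions; other pathway regions numbered 67 higher and 42 lower, and markers of other cells 21 higher and 18 lower. Merging to 500 bp changed only 9 regions and says little. Counts near 1 CPM limit what can be seen at the least open regions. They were as few as 7 in a library of the member regions, and 10 in Notch2_cKO 2 at the called Rarb region 16571101.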
